A study of Mus musculus with 22 samples.

Results

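An established line of induced neural progenitors, labelled giNPC P6 for its passage 6, was compared with neural progenitor cells derived from neonatal brain, labelled Brain-NPC. Members were the 4 libraries that carry these labels, 2 in each group, of 22 libraries in 11 groups. All were from C57BL/6 mice, and the other groups were fibroblast induction cultures on 7 days, primary neurosphere-like clusters (pre-NPC) and teratoma. The study's title describes direct induction of neural progenitors through a transient, partially reprogrammed state, and Brain-NPC was the natural counterpart in the series. The induction factors and the brain region and culture time of Brain-NPC are not stated in the labels. Nor do the labels tie each library to a culture or line of its own. The p-values below therefore measure the spread between libraries, pooled over the 11 groups, which in some groups may be technical. The giNPC P6 libraries also differed in sex-linked genes and on chromosome 2, as given below. What was measured is poly(A)-selected RNA in bulk, in which fewer cells of a type and less RNA per cell cannot be told apart.

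Neural progenitors keep a record of where along the body axis they arose. Forebrain progenitors are marked by Otx2 and Six3 and hold the Hox clusters silent, whereas hindbrain and spinal cord progenitors express Hox genes in a nested order, those at the 3′ end of each cluster reaching furthest forward. Progenitors from neonatal brain also include cells committed to the glial lineages, marked by Sox10 and Olig2 for oligodendrocytes and Gfap and Aldh1l1 for astrocytes. Embryonic fibroblasts, the starting cells of the induction, express Hox genes of their own according to the part of the body they came from.

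Depth was similar in the 4 libraries, with 5537606 and 6525812 reads counted in transcripts in giNPC P6 and 6777056 and 7331671 in Brain-NPC. Both Brain-NPC libraries were nearly alike (Spearman's rho across genes 0.993), with a chi-square per degree of freedom of 2.19 between them. The giNPC P6 libraries were less so, at 0.974 and 31.84, where the 10 other groups ranged from 2.19 to 31.36. Their sex-linked genes also differed. Xist, the RNA that coats the inactive X chromosome, had 643 CPM (counts scaled to library size) in giNPC P6 replicate 1, 22.4 in replicate 2 and 335 and 337 in Brain-NPC. Ddx3y, on the Y chromosome, had 149 and 601 counts in giNPC P6 and 0 and 1 in Brain-NPC, whereas Eif2s3y, also on the Y, had 0 and 669 in giNPC P6. Replicate 1 thus held Xist together with Y-linked RNA that lacked Eif2s3y. At day 1 of the induction Xist had 0 and 2 counts and Eif2s3y 820 and 806. Replicate 1 thus differed from the day 1 cultures in both genes, and the reason was not tested. Genes of chromosomes X and Y were left out of every comparison below.

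Chromosome 2 set the giNPC P6 libraries apart from each other. Over 635 genes of chromosome 2 with at least 10 CPM, the median log2 difference of replicate 1 from replicate 2 was 0.45, and 544 genes (85.7%) were higher in replicate 1. On the 18 other autosomes that median lay between -0.09 and 0.09. In 10 consecutive windows of 20 megabases (mm9) along chromosome 2 it ranged from 0.35 to 0.57. Between the 2 libraries of the 10 other groups the chromosome 2 median lay between -0.02 and 0.06, and over all their chromosomes between -0.24 and 0.39, the latter on chromosome 10 of pre-NPC. Against the Brain-NPC mean, replicate 1 stood at 0.34 and replicate 2 at -0.11 on chromosome 2. Other chromosomes had medians away from 0 that both libraries shared, such as -0.38 and -0.33 on chromosome 19. DNA was not measured, and the part of this offset in the calls was not tested beyond the counts that follow. Of 1284 genes tested on chromosome 2, 131 (10.2%) were called higher in giNPC P6, against 6.72% of genes elsewhere, and 54 of the 131 were at least 2-fold higher in replicate 1 only. On chromosome 2, 78 genes (6.07%) were called lower, against 8.46% of genes elsewhere. The check in both libraries left 71 higher and 60 lower of the 1284 genes on chromosome 2, and 632 and 931 elsewhere. Over all tested autosomal genes the shares held in both were 4.47% higher and 6.31% lower.

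**Figure D1:**
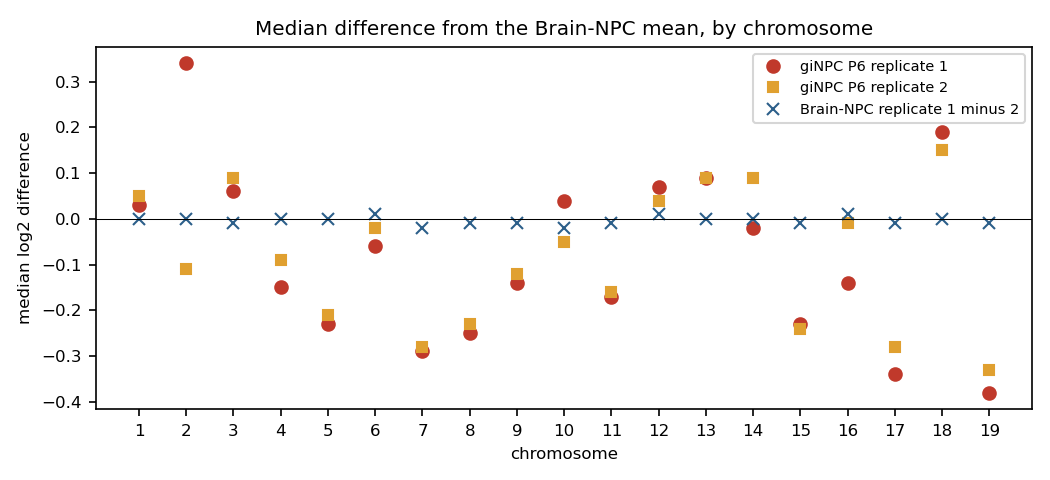
Median log2 difference from the Brain-NPC mean for genes with at least 10 CPM, by autosome, for each giNPC P6 library, with the median of Brain-NPC replicate 1 minus replicate 2 as crosses. On chromosome 2 replicate 1 is at 0.34 and replicate 2 at -0.11, while on the other chromosomes both libraries lie close together.

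For genes with 1 transcript the comparison used counts, given as CPM after TMM scaling, and for genes with several transcripts it used FPKM (fragments per kilobase of transcript, scaled to the library's fragments), because the deposited counts of most such genes were under 0.5 of those expected from FPKM and length. A gene was called where the fold change was 2 or more and the Benjamini-Hochberg adjusted p was below 0.05, by edgeR's quasi-likelihood test on counts or limma on log2(FPKM + 1). It was held in both libraries where each giNPC P6 library on its own was also at least 2-fold from the Brain-NPC mean. Of 15714 autosomal genes tested, 1101 (7.01%) were called higher and 1299 (8.27%) lower in giNPC P6, and the median log2 fold change of all was 0.00. Both libraries held 703 of the higher genes (4.47% of those tested) and 991 of the lower genes (6.31%). By table, counts gave 946 higher (7.51%) and 1150 lower (9.13%) of 12596 genes, with 615 (4.88%) and 886 (7.03%) in both libraries. FPKM gave 155 higher (4.97%) and 149 lower (4.78%) of 3118 genes, with 88 (2.82%) and 105 (3.37%) in both.

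Calls that 1 library carried were frequent. Among the 398 higher genes that were not held in both, 240 were at least 2-fold higher in replicate 1 only and 150 in replicate 2 only. Among the 308 such lower genes, 172 were at least 2-fold lower in replicate 1 only and 118 in replicate 2 only. With giNPC P6 replicate 1 left out, 696 of the 946 higher and 861 of the 1150 lower calls from counts were called again in the same direction, and without replicate 2 these numbers were 761 and 909.

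**Figure D2:**
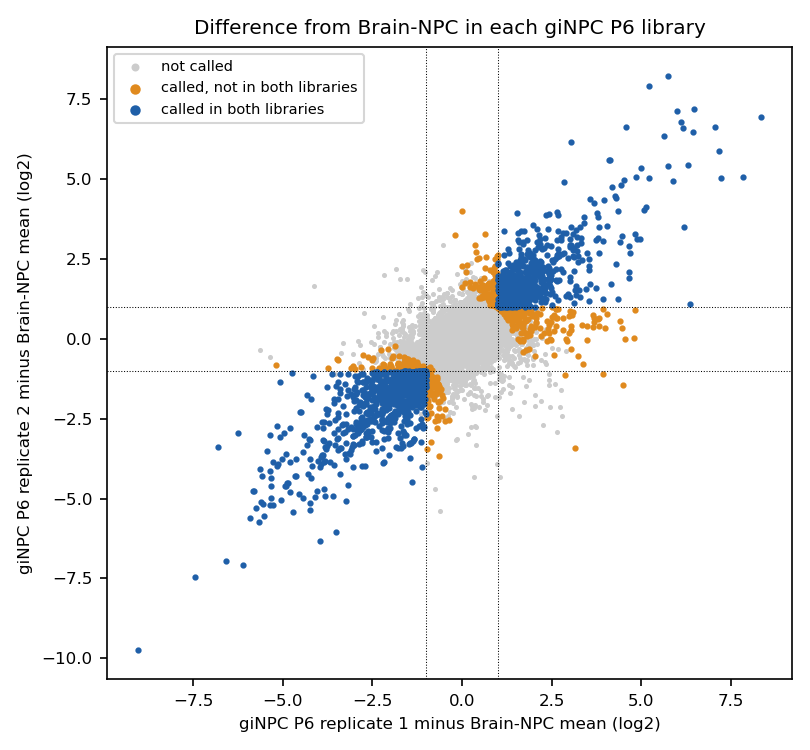
Log2 difference from the Brain-NPC mean in giNPC P6 replicate 1 (x axis) and replicate 2 (y axis) for each autosomal gene tested, on log2(CPM + 0.5) or log2(FPKM + 1). Blue points are the 703 higher and 991 lower genes held in both libraries, orange points were called without being held in both, and dotted lines mark a 2-fold difference.

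The Hox genes were the clearest difference. Of 39 Hox genes, 32 passed the filter on low values, 27 of these were called higher in giNPC P6, and all 27 were held in both libraries; the share called higher among all genes was 7.01%, and 4.47% in both. In Brain-NPC no Hox gene exceeded 0.206 FPKM in either library. Since several Hox genes passed the filter through groups where they were high, the count describes these genes and is not a test of the family. Summed over the 39 genes, FPKM was 274 and 331 in giNPC P6, 0.53 and 1.2 in Brain-NPC, and 224 and 239 at day 1 of the induction.

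HoxA, on chromosome 6 in mm9, had 9 of 10 tested genes higher. Hoxa5, a homeobox factor of the cervical and upper trunk level, had 161 and 61.6 CPM in giNPC P6 and no count in either Brain-NPC library, at least 513-fold higher against a floor of 3 counts over both Brain-NPC libraries (0.217 CPM). Hoxa2, which patterns the hindbrain, had 70.8 and 29.2 CPM against 0 and 0. Hoxa9, a factor of more posterior levels, had 26.1 and 150 CPM against 0 and 0, so replicate 2 was the higher for Hoxa9 and replicate 1 for Hoxa5 and Hoxa2. The transcript listed as Mira, which lies inside the cluster (chromosome 6, 52164490 to 52165287), had 34.1 and 55.4 CPM against 0 and 0. Hoxa10, read from FPKM, had 6.51 and 9.69 against 0 and 0.152.

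HoxB (chromosome 11, 96055675 to 96229567) had all 8 tested genes higher. Hoxb2, another hindbrain gene, had 43.2 and 44.0 CPM in giNPC P6 and no count in Brain-NPC, at least 201-fold higher. Hoxb5 had 26.3 and 20.7 CPM and Hoxb7 24.3 and 40.6, both with no count in Brain-NPC. Hoxb8 had 63.2 and 139 CPM against 0.15 and 0.839. Hoxb5 was higher in replicate 1 and Hoxb8 in replicate 2, and for each of these genes both giNPC P6 libraries lay far above Brain-NPC.

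HoxC (chromosome 15, 102751562 to 102867283) had 6 of 7 tested genes higher, with a wider spread between libraries. Hoxc8, a trunk gene, had 23.4 and 155 CPM against 0.15 and 0.14, and Hoxc9 had 11.4 and 48.8 against 0 and 0. Summed FPKM over the cluster was 18.7 in replicate 1 and 84 in replicate 2. HoxC was thus several-fold lower in replicate 1, while the HoxA sums were 140 and 121 and the HoxB sums 106 and 113. HoxD (chromosome 2, 74506367 to 74603199) had 4 of 7 tested genes higher, among them Hoxd8 with 8.01 and 23.8 CPM against 0 and 0.

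Genes at the 5′ ends of the clusters were not detected in the line. Hoxa11, Hoxa13, Hoxb13, Hoxc12, Hoxc13, Hoxd11, Hoxd12 and Hoxd13 had no count and 0 FPKM in all 4 libraries. At day 1 of the induction Hoxa11 had 2.59 and 2.81 FPKM. Summed FPKM at day 1 was 19.5 and 19.3 for HoxA, 75.6 and 83.9 for HoxB, 119 and 125 for HoxC and 9.96 and 10.5 for HoxD. HoxC thus held the highest sum at day 1 and HoxA in both libraries of the line. Single genes differed within a cluster too: Hoxc6 had 48.4 and 49.7 FPKM at day 1 and 1.61 and 18 in giNPC P6, and Hoxb9 26.8 and 25.7 at day 1 and 1.4 and 0.685 in giNPC P6. Hoxb9 was called from counts and not when FPKM was tested in their place. Hoxa5 went the other way, with 3.37 and 3.13 FPKM at day 1 and 59.6 and 21.7 in giNPC P6. These levels are given as a description, without a test between day 1 and the line.

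**Figure D3:**
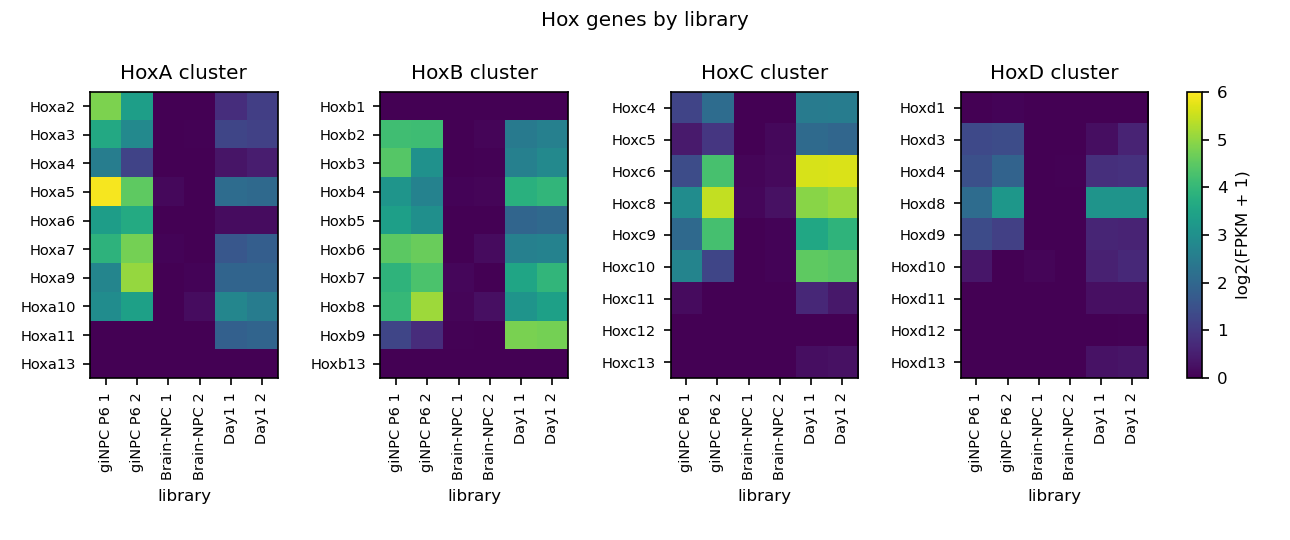
Log2(FPKM + 1) of Hox genes in the giNPC P6, Brain-NPC and Day1 libraries, with each cluster in order of paralogue number. Brain-NPC stays at or below 0.206 FPKM, giNPC P6 is high from Hoxa2 to Hoxa10 and Hoxb2 to Hoxb8, and groups 11 to 13 are at or near 0 in the line.

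To show what lies upstream of genes that were at or near 0 in one group and expressed in the other, promoters are printed for 2 Hox genes (Hoxa5, Hoxa9) and 2 genes of Brain-NPC (Nr2e1, Luzp2). Each is 300 bases, 250 before to 50 after the annotated start, from RefSeq on GRCm38.p6, which is not the build of the deposited files. Capitals mark the dinucleotide CG, which reads the same on both strands.
Hoxa5, chr6:52204538-52204837, minus strand: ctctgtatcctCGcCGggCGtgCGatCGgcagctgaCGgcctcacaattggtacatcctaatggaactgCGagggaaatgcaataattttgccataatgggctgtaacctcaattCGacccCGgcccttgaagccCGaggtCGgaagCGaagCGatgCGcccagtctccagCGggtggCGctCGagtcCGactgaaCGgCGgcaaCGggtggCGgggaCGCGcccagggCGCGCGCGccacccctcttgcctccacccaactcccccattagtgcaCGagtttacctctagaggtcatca
Hoxa9, chr6:52227321-52227620, minus strand: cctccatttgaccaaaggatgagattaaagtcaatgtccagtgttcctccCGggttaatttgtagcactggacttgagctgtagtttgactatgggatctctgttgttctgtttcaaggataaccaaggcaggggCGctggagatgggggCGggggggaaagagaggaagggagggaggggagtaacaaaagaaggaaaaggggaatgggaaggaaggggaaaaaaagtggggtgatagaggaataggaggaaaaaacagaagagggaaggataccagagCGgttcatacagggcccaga
Nr2e1, chr10:42583541-42583840, minus strand: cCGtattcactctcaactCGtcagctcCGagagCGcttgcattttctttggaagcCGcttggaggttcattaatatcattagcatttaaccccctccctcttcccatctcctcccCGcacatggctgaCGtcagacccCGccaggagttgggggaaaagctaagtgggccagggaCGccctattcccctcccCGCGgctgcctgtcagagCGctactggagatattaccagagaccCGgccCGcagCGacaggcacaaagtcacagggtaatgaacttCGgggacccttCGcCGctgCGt
Luzp2, chr7:54834995-54835294, plus strand: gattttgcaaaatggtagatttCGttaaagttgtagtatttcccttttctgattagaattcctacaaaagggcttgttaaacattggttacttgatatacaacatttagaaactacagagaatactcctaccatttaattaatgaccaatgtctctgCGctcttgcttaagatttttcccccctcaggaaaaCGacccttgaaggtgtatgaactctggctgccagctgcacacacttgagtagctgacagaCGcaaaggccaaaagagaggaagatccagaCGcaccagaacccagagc

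The Hoxa5 window holds 29 CG and the Nr2e1 window 19, while the Hoxa9 window holds 4 and the Luzp2 window 5. Among the 11469 of 15714 tested genes that matched a promoter by symbol, 23.2% hold at least 29 CG, 52.5% at least 19, 90.9% at least 4 and 88.0% at least 5. CG-rich and CG-poor windows thus occurred among genes that were at or near 0 in one group. The median was 19 CG over all 11469 promoters, 19 over the 487 matched genes held higher in both libraries and 19 over the 698 held lower. At least 15 CG were present in 64.0% of all, 59.8% of the higher and 65.6% of the lower genes. The 14 called Hox genes with a matched promoter had a median of 12.5 CG, with at least 15 in 35.7% and TATAAA in 14.3%. TATAAA, on either strand, was present in 8.36% of all, 7.8% of the higher and 9.31% of the lower genes, and in none of the 4 windows printed.

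Forebrain factors were the reverse of the Hox genes. Of 28 tested members of the forebrain list, 10 were lower in giNPC P6 and 9 of these were held in both libraries, against 8.27% and 6.31% of all genes. The list's median log2 fold change was -0.84, -2.43 without replicate 1 and -0.57 without replicate 2, where 8 were lower and 2 higher. With the 4 libraries fitted alone, 8 of 14 were lower. The 1 member higher, Nr2f2, an orphan nuclear receptor gene named after its values were seen, had 4.5 and 3.81 FPKM against 0.926 and 0.916. Otx2, which specifies forebrain and midbrain, had no count in giNPC P6 and 21.9 and 23.2 CPM in Brain-NPC, at least 101-fold lower against the floor of 3 counts over both giNPC P6 libraries (0.223 CPM). Sp8, a zinc-finger factor of the telencephalon, had no count against 16.5 and 15.7 CPM. Nr2e1, also called Tlx, which maintains adult forebrain stem cells, had 0.48 and 0 CPM against 64.6 and 69.1.

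Six3, a factor of the anterior forebrain and eye, had 0.801 and 1.67 CPM against 49.8 and 54.5. Dmrta2, a cortical patterning factor, had 0.16 and 0.417 CPM against 36.0 and 34.2, and Otx1 had 2.08 and 0 against 39.3 and 40.5. For each of these genes the groups were far apart and both giNPC P6 libraries were near 0. Emx2, a cortical factor, was less extreme, with 11.4 and 3.62 CPM against 25.3 and 25.4 (log2 fold change -1.77 ± 0.50 SE, edgeR adjusted p = 0.00961), a call lost without replicate 2 and with the 4 libraries fitted alone. Lhx2, another cortical and eye factor, was called lower (-1.22 ± 0.36, adjusted p = 0.0137), but replicate 1 had 103 CPM and replicate 2 had 28.4, against 151 and 155. The call was not held in both libraries and was lost without replicate 2, without either Brain-NPC library and with the 4 libraries fitted alone. Dlx1, of the ventral telencephalon, was low in both groups, with 13.4 and 3.2 CPM against 4.2 and 5.45, and did not pass.

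Several midbrain, hindbrain and dorsal factors were higher. Of 21 tested members of the midbrain and hindbrain list, 7 were higher and 1 lower, against 7.01% and 8.27% of all genes, and 6 and 1 were held in both libraries. The median log2 fold change was 0.78, 0.00 without replicate 1 and 0.29 without replicate 2. The Iroquois genes, homeobox factors of the midbrain, hindbrain and spinal cord, were higher together: Irx2 had 56.8 and 64.8 CPM against 6.75 and 5.59 (3.30 ± 0.22, adjusted p = 4.57e-10). Irx5 had 35.2 and 31.7 CPM against 4.05 and 3.77, Irx3 had 42.6 and 14.6 against 4.65 and 3.91, and Irx1 had 38.9 and 51.6 against 10.8 and 13.8. En2, of the midbrain and hindbrain border, had 8.49 and 24.2 CPM against 2.7 and 4.33 (2.21 ± 0.63, edgeR adjusted p = 0.012). Its call was lost without giNPC P6 replicate 2 and without Brain-NPC replicate 1. Gata3, which marks ventral interneurons of hindbrain and cord, had 11.5 and 9.32 CPM against 0.3 and 0.419. Barhl2 was the member that was lower, with 0.16 and 0 CPM against 4.5 and 6.29. Gbx2, an early hindbrain factor, had 9.45 and 5.84 CPM against 6.6 and 4.61 and did not pass. The Irx genes were also present in the day 1 cultures, Irx2 at 56.8 and 66.3 CPM, whereas En2 was at 0 there.

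Dorsal genes were among the higher members of the dorsoventral list, which had 5 of 21 higher and 3 lower and a median of 0.05. Both libraries held 4 higher and 2 lower. Of all genes 7.01% were higher and 8.27% lower, 4.47% and 6.31% in both. Msx1, a roof plate and neural fold factor, had 40.0 and 28.2 CPM against 2.1 and 1.82 (4.11 ± 0.38, adjusted p = 6.63e-08). Pax3, of the dorsal neural tube, had 4.74 and 9.38 FPKM against 0.207 and 0.127, and Zic1 had 224 and 247 CPM against 101 and 89.6. The ventral factor Nkx2-2 was lower, with 2.04 and 2.19 FPKM against 18.2 and 16.2 (limma, -2.54 ± 0.16, adjusted p = 2.8e-08). Foxa2, of the floor plate, went against this order: it had 4.96 and 0.974 CPM in giNPC P6 and none in Brain-NPC, at low levels.

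**Figure D4:**
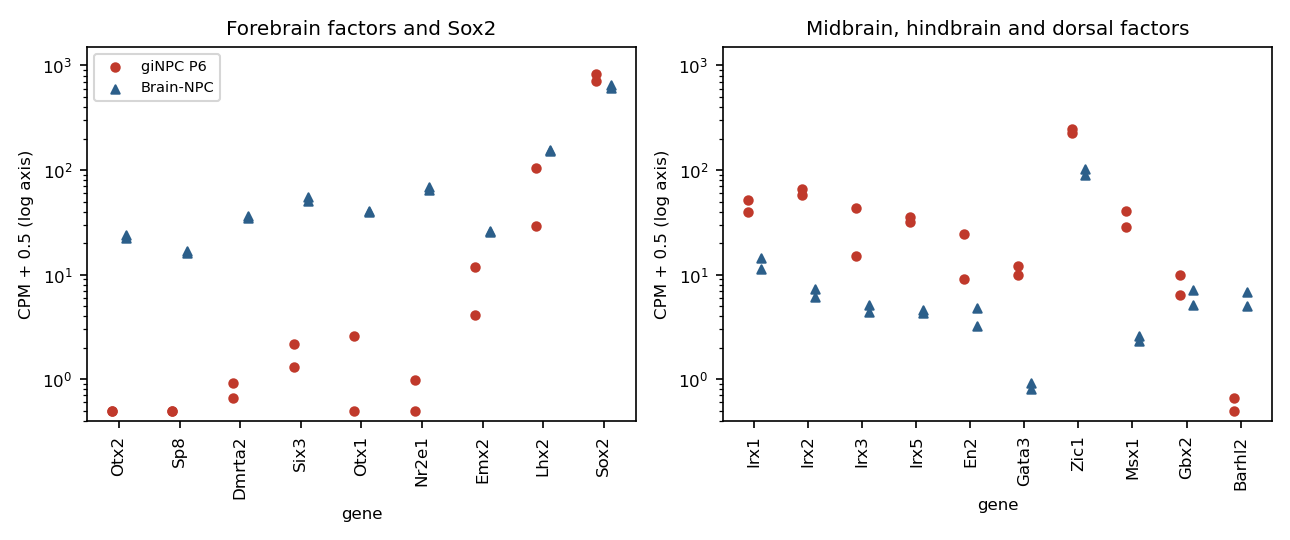
CPM + 0.5 on a log axis in each giNPC P6 library (red circles) and Brain-NPC library (blue triangles) for forebrain factors with Sox2 (left) and for midbrain, hindbrain and dorsal factors (right). Otx2 and Sp8 are at 0 CPM in giNPC P6, Sox2 stands between 604 and 826 CPM in all 4 libraries, and the Irx genes, Msx1 and Gata3 are separated in the other direction.

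General progenitor genes changed in both directions. Of 29 tested members of the neural progenitor list, 4 were higher and 4 lower, against 7.01% and 8.27% of all genes, 1 and 3 were held in both libraries, and the median log2 fold change was 0.25. Sox2, the core factor of neural stem cells, had 707 and 826 CPM in giNPC P6 and 604 and 643 in Brain-NPC and did not pass the threshold (0.30 ± 0.14, adjusted p = 0.109). Sox9 had 165 and 166 CPM against 172 and 192, and Fabp7, the radial glial lipid-binding protein, 3552 and 5006 against 3742 and 3615. Pax6, read from FPKM, had 23.1 and 21.0 against 15.5 and 17.6. None of these 4 genes was called, and a p that misses the threshold does not show that the levels are equal. Nes, the intermediate filament nestin, was lower, with 571 and 587 CPM against 1208 and 1309 (-1.12 ± 0.13, adjusted p = 1.05e-06). Pou3f2, a neural POU factor, was higher, with 192 and 196 CPM against 72.7 and 66.7.

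Within the Notch pathway, which holds progenitors undifferentiated, 2 of 20 tested members were higher and 2 lower, 1 and 2 in both libraries. Of all genes 7.01% were higher and 8.27% lower, 4.47% and 6.31% in both, so the Notch counts were near the background. Notch1, the receptor, had 727 and 399 CPM against 624 and 647, and its target Hes5 had 83.9 and 119 against 83.4 and 86.9, and neither was called. Lfng and Mfng, Fringe enzymes that modify Notch receptors, were lower: Lfng had 126 and 133 CPM against 554 and 562 (-2.10 ± 0.16, adjusted p = 5.24e-09), and Mfng 0.32 and 3.34 against 18.4 and 17.8. The target Hey2 was higher, with 30.7 and 34.5 CPM against 4.8 and 8.39. Hey1, another target, was called higher with 205 and 244 CPM against 105 and 103, was not held in both libraries and lost its call without replicate 2.

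Many oligodendrocyte lineage genes were lower. Of 24 tested members, 10 were lower and none higher, and 7 were held in both libraries, against 8.27% and 6.31% of all genes; the median log2 fold change was -1.04. With the 4 libraries fitted alone, 4 of 17 were called lower and the median was -1.13. Sox10, a transcription factor of the lineage, had 2.72 and 0.974 CPM against 59.2 and 61.4 (-5.05 ± 0.40, adjusted p = 6.06e-09). Olig2, its partner in the lineage, had 169 CPM in replicate 1, 688 in replicate 2 and 1344 and 1314 in Brain-NPC, so its call (-1.63 ± 0.35, adjusted p = 0.00102) was not held in both libraries and was lost without replicate 1 and with the 4 libraries fitted alone. Its neighbour Olig1 had 4421 and 2432 CPM against 3841 and 3666 and did not pass. Gpr17, a receptor of committed precursors, had 2.72 and 18.8 CPM against 64.6 and 63.2, Pdgfra 2.54 and 3.0 FPKM against 11.4 and 11.8, and Cspg4, which encodes NG2, 13.1 and 58.1 CPM against 127 and 122. With the 4 libraries fitted alone the calls of Gpr17 and Cspg4 were lost. In pre-NPC, Sox10 stood at 139 and 105 CPM and Gpr17 at 317 and 485, above both groups compared here. Genes of mature myelin were low in both groups, with Mbp at 0.474 and 1.06 FPKM against 1.42 and 1.2.

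Astrocyte genes divided. Of 25 tested, 5 were lower, all held in both libraries, and 3 were higher, 2 of them in both. Of all genes 8.27% were lower and 7.01% higher, 6.31% and 4.47% in both. Gfap, the astrocyte intermediate filament, had 9.62 and 12.3 FPKM against 321 and 326 (limma, -4.77 ± 0.42, adjusted p = 9.22e-07), and in pre-NPC it had 223 and 916. Aldh1l1, a folate enzyme of astrocytes, had 454 and 362 CPM against 2093 and 2135, Mt3 had 270 and 647 against 2095 and 2138, and Clu had 29.6 and 44.9 against 171 and 171. The transporter Slc1a3 had 1823 and 1909 CPM against 2421 and 2370 and the enzyme gene Aldoc 1905 and 1585 against 1517 and 1557, and neither was called. S100b was higher, with 117 and 172 CPM against 51.9 and 46.7, as was Agt, which encodes angiotensinogen, with 272 and 487 against 105 and 95.3. Of the NFI factors that promote the glial fate, Nfia had 11.6 and 10.1 FPKM against 8.13 and 8.04 and was not called.

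Choroid plexus and ependymal genes were lower where they changed, with 7 of 15 tested members called and 6 held in both libraries. The shares of all genes that were lower were 8.27% and 6.31%. None of the list was higher, and its median was -1.95. Without replicate 1, 4 of 15 were lower, and with the 4 libraries fitted alone 4 of the 6 that could then be tested. Summed over the 15 members, FPKM was 3.7 and 9.05 in giNPC P6 and 266 and 252 in Brain-NPC. Many members were low in both groups, with 12 and 11 under 0.5 FPKM in giNPC P6 and 7 and 8 in Brain-NPC. Ttr, which encodes transthyretin of the choroid plexus, had 0.32 and 0 CPM against 430 and 429 (-11.30 ± 0.43, adjusted p = 6.19e-11). Foxj1, the factor of motile ciliated cells, had 5.44 and 16.8 CPM against 48.6 and 38.6, and the choroid gene Clic6 had 0 and 0.139 against 8.1 and 4.75. Among neuronal genes 5 of 22 were lower, all in both libraries, and 3 were higher, 1 in both. Of all genes 7.01% were higher, 4.47% in both. Gap43, of growing axons, had 20.2 and 37.7 CPM against 193 and 194, while Tubb3 had 38.1 and 29.2 against 26.1 and 30.9 and did not pass. Map2 was higher, with 159 and 130 FPKM against 65.8 and 65.0, without reaching 2-fold in replicate 2 on the log2(FPKM + 1) scale.

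The remaining genes with the largest differences were of varied function. Luzp2, a leucine zipper protein gene (chromosome 7, 62090615 to 62524258), had no count in giNPC P6 and 88.8 and 83.6 CPM in Brain-NPC, at least 386-fold lower. Nptx2, a neuronal pentraxin, had 0.32 and 0.139 CPM against 82.3 and 73.2, and Dhh, which encodes Desert hedgehog, 0 and 0.139 against 18.3 and 20.7. Fbln2, an extracellular matrix protein gene, had 1.17 and 1.07 FPKM against 107 and 112. Igf2bp3, an oncofetal RNA-binding protein gene, had 0.64 and 0.696 CPM against 44.4 and 42.8. In the other direction, Il33, which encodes an alarmin cytokine, had 67.8 and 77.0 FPKM against 3.82 and 4.25 (limma, 3.86 ± 0.12, adjusted p = 2.19e-11). Calca, the gene for calcitonin and its related peptide, had 16.5 and 22.7 FPKM against 0.842 and 0.485, and was at 0.896 and 0.599 in pre-NPC. Adarb2, of the RNA-editing enzyme family, had 18.1 and 15.9 CPM and no count in Brain-NPC.

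Many DNA replication genes were lower. Of 22 tested, 11 were lower and none higher, 9 in both libraries, against 8.27% and 6.31% of all genes, and the median log2 fold change was -1.03, where the median of all genes was 0.00. Mcm2, a subunit of the replicative helicase, had 161 and 182 CPM against 488 and 507 (-1.54 ± 0.13, adjusted p = 2.29e-08). Cdt1, which loads the helicase, had 29.6 and 26.6 CPM against 96.1 and 100, and Rrm2, of ribonucleotide reductase, 150 and 159 against 457 and 450. Pcna, the sliding clamp, had 161 and 131 CPM against 344 and 342. Of mitotic genes 3 of 22 were lower, against 8.27% of all genes, with a median of -0.70, and 6 were lower when replicate 1 was left out. Cdc20 had 115 and 113 CPM against 361 and 384, whereas Top2a had 551 and 498 against 733 and 744 and was not called.

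Regulators of entry into the cycle changed in both directions. In the list of D cyclins and CDK inhibitors 5 of 12 were lower and 1 higher, 4 and 1 in both libraries. With the 4 libraries fitted alone 3 were lower. Of all genes 8.27% were lower and 7.01% higher, 6.31% and 4.47% in both. Ccnd1, cyclin D1, had 518 and 732 CPM against 2440 and 2498 (-1.98 ± 0.16, adjusted p = 6.83e-09), and Cdkn1b, which encodes the inhibitor p27, was higher, with 228 and 246 CPM against 81.9 and 69.2 (1.65 ± 0.19, adjusted p = 1.66e-06). The inhibitor genes Cdkn1a and Cdkn2b were lower instead, Cdkn1a with 27.5 and 66.4 FPKM against 147 and 147. Cdkn2a had 19.8 and 55.4 FPKM against 64.4 and 69.4 and did not pass the fold threshold. Of 17 tested p53 targets 7 were lower and 1 higher, 5 and 1 in both libraries. Phlda3 had 33.8 and 59.0 CPM against 178 and 181 and Sesn2 38.9 and 42.4 against 129 and 122, while Mdm2, the p53 ligase and target, had 88.4 and 76.8 against 88.3 and 84.8.

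Several genes induced by low oxygen were higher. The glycolysis and hypoxia list had 8 of 22 members higher and 1 lower, with 7 higher in both libraries and a median of 0.70. Counts of Gapdh, 1 of the 8, hold only 0.008 of those expected from its FPKM; without it 7 of 21 were higher, 6 in both, against 7.01% and 4.47% of all genes. Bnip3, a mitochondrial protein gene of the hypoxia response, had 104 and 200 CPM against 27.4 and 20.4 (2.67 ± 0.27, adjusted p = 3.19e-07). Ndrg1 had 16.5 and 88.7 CPM against 5.4 and 5.31, and Ankrd37 14.1 and 37.3 against 2.55 and 3.35. Pdk1, a pyruvate dehydrogenase kinase gene, had 165 and 189 CPM against 48.0 and 43.8. Vegfa had 124 and 191 FPKM against 42.0 and 42.1. Each of these genes was higher in replicate 2 than in replicate 1, and with replicate 1 left out the list had 11 members higher, with replicate 2 left out 6. The glycolytic enzyme genes Ldha and Aldoa were not called, Ldha with 361 and 488 FPKM against 399 and 402.

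Cholesterol synthesis genes were lower where they changed. Of 20 tested, 8 were lower and none higher, 5 in both libraries, where 8.27% and 6.31% of all genes were lower. The median was -0.66, and 5 were lower with the 4 libraries fitted alone. Lss, lanosterol synthase, had 121 and 138 CPM against 315 and 308 (-1.26 ± 0.22, adjusted p = 0.000172). Sqle, squalene epoxidase, had 413 and 309 CPM against 301 and 290 and was not called. In the Igf list 3 of 14 were lower, all in both libraries, and 1 higher, where 7.01% of all genes were higher. Igfbp3 had 197 and 203 CPM against 928 and 936 and Igfbp2 1030 and 1283 against 3498 and 3642, both lower in both libraries. Igfbp5, another Igf-binding protein gene, was the higher one, with 323 and 936 CPM against 166 and 163 (1.94 ± 0.28, adjusted p = 1.93e-05), a call lost without replicate 2.

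Among axon guidance genes 12 of 43 were higher and 4 lower, 6 and 3 in both libraries. Of all genes 7.01% were higher and 8.27% lower, 4.47% and 6.31% in both. Without replicate 2 there were 15 higher and 6 lower, and without replicate 1 there were 7 and 8. Dcc, the netrin receptor, had 83.9 and 82.2 CPM against 8.55 and 8.67 (3.27 ± 0.25, adjusted p = 5.36e-09), and Robo2, a Slit receptor, had 301 and 290 against 60.9 and 65.8. The ligand genes Slit1 and Ntn4 were lower, Slit1 with 0.961 and 0.278 CPM against 31.6 and 22.1 and Ntn4 with 2.4 and 6.68 against 85.9 and 88.1. Epha4, an ephrin receptor, had 121 and 103 CPM against 27.7 and 33.3.

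Growth factor and adhesion genes differed by member. In the Wnt list 4 of 38 were higher and 6 lower, 2 and 5 in both libraries. Of all genes 7.01% were higher and 8.27% lower, 4.47% and 6.31% in both. Lgr5, the R-spondin receptor of stem cells, had 154 and 75 CPM against 3.75 and 4.47 (4.79 ± 0.36, adjusted p = 4.15e-09), while the Wnt inhibitor genes Dkk3 and Sfrp1 were lower, Dkk3 with 1.12 and 0.139 against 18.9 and 19.2. Of 36 genes of Bmp and Tgfb signalling, 9 were higher and 2 lower, 5 and 2 in both libraries, and 5 were higher and 1 lower without replicate 1; Id2, a Bmp target, had 360 and 303 CPM against 103 and 108. Pdgfd, a PDGF receptor ligand, had 16 and 18.5 CPM against 0.3 and 0.419, and Erbb4, a neuregulin receptor, 34.4 and 57.7 against 9.75 and 5.17. Of the glutamate receptors, Gria4 had 28.5 and 25.8 FPKM against 3.03 and 3.26, and Gria1 0.134 and 0.200 against 5.97 and 6.47, so the AMPA receptor subunits exchanged order between the groups. Gria2 had 22.9 and 11.1 FPKM against 20.6 and 18.7 and was not called.

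Clustered protocadherins, cell-surface proteins that give single neurons their identity, differed by cluster. The list holds the beta cluster and 4 genes of the alpha and gamma clusters. Against 7.01% of all genes higher and 8.27% lower, 9 of 25 tested were higher and 2 lower, 8 and 2 in both libraries. The higher ones were all of the beta cluster, among them Pcdhb8 with 35.5 and 31.9 CPM against 3.0 and 3.22 (3.43 ± 0.47, adjusted p = 1.32e-05) and Pcdhb9 with 45.9 and 26.2 against 3.75 and 3.49. The lower ones, Pcdhgc4 and Pcdhgc5, share exons with the rest of the gamma cluster, and their counts hold 0.516 and 0.453 of those expected from FPKM, so their values are uncertain. The gamma A and B genes, which the list does not hold and which were counted after their values were seen, had 10 of 19 lower and 2 higher, 8 and 1 in both libraries, with the same uncertainty. Pcdhga11 was the furthest apart of them, with 0 and 0.139 CPM against 10.9 and 13.3. Cdh19, a cadherin gene of the glial lineages, had 0 and 0.556 CPM against 27.9 and 28.0.

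Markers of other tissues were checked in both groups. Fibroblast collagens were near 0 in both groups: Col1a1 had 2.72 and 1.25 CPM in giNPC P6, 1.35 and 0.699 in Brain-NPC and 4726 and 4525 at day 1. Over the 34 fibroblast markers, FPKM summed to 191 and 157 in giNPC P6 and 295 and 305 in Brain-NPC. Of these markers 6 were lower and 3 higher, against 8.27% and 7.01% of all genes. Thy1 and Ddr2 were lower, Thy1 with 1.44 and 4.03 CPM against 77.2 and 80.8 and Ddr2 with 1.76 and 0.556 against 31.6 and 31.7. The 3 higher genes, Twist1, Snai2 and Tbx15, are transcription factors of mesenchyme that were carried by replicate 1. Twist1 had 20.5 CPM there and 0.139 in replicate 2. Summed over 20 macrophage markers, FPKM was 29.5 and 3.46 in giNPC P6 and 9.56 and 10.4 in Brain-NPC, with Cx3cr1 at 0 in all 4 libraries and Lyz2 at 20.3 and 0.696 CPM against 3.15 and 6.15. The 14 vessel markers summed to 1.18 and 2.31 FPKM in giNPC P6 and 3.3 and 3.14 in Brain-NPC. The part of these cells in the results above was not tested.

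Immune and imprinted genes differed gene by gene. In the antigen presentation list 6 of 18 were lower and 1 higher, 4 and 1 in both libraries. Of all genes 8.27% were lower and 7.01% higher, 6.31% and 4.47% in both. H2-K1, a class I heavy chain, had 23.5 and 52.3 CPM against 102 and 114, while its partner B2m was higher, with 365 and 598 against 155 and 160 (1.61 ± 0.18, adjusted p = 1.21e-06). Among interferon response genes 3 of 31 were higher and 4 lower, with none higher when replicate 2 was left out, and none higher and 2 lower with the 4 libraries fitted alone. In both libraries 1 interferon response gene was held higher and 3 lower. Of 36 imprinted genes 4 were higher and 6 lower, 3 of each in both libraries. Ndn, which encodes necdin, had 51.7 and 32.1 CPM against 169 and 149, and Mest 318 and 630 against 535 and 535 without a call. Airn, the antisense RNA of the Igf2r locus, was higher, with 17.0 and 9.96 FPKM against 0.722 and 2.39, but the strand setting of the quantification is not given and reads from overlapping genes cannot be told apart.

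Genes whose giNPC P6 libraries differed most were mostly high in replicate 1. The 10 most divergent called genes of at least 10 CPM were higher in replicate 1 in 9 cases, the exception being Pcdhga7. Tbx15, a limb and trunk mesenchyme factor, had 40.2 CPM in replicate 1, 0.556 in replicate 2, none in Brain-NPC and 231 and 228 at day 1; it was held in both libraries because 0.556 CPM against 0 is past 2-fold with the 0.5 CPM added before the log. Zfhx4 had 60.7 CPM in replicate 1, 0.139 in replicate 2 and 5.55 and 7.13 in Brain-NPC, so the Brain-NPC values fell between those of giNPC P6. Unc5d, a netrin receptor gene, had 30.3 and 0 CPM against 0.9 and 0.839, and Stk32b 58.6 and 1.67 against 0.9 and 2.38. Stk32b and Unc5d were at or under 1.15 CPM at day 1, while Tbx15, Zfhx4 and Twist1 were at 64.9 CPM or more.

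The genes held in both libraries were also placed against earlier stages, as a description without a test. The same shares were not computed over all genes, so the percentages have no background beside them. Of the 703 higher genes, 630 (89.6%) had a pre-NPC mean nearer to giNPC P6 than to Brain-NPC on the log2 scale, 513 (73.0%) a day 21 mean and 358 (50.9%) a day 1 mean. Of the 991 lower genes, 676 (68.2%) were nearer to giNPC P6 in pre-NPC, 569 (57.4%) at day 21 and 639 (64.5%) at day 1. Lower genes such as Gfap, Sox10 and Gpr17 were among those whose pre-NPC level stood with Brain-NPC or above it.

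**Figure D5:**
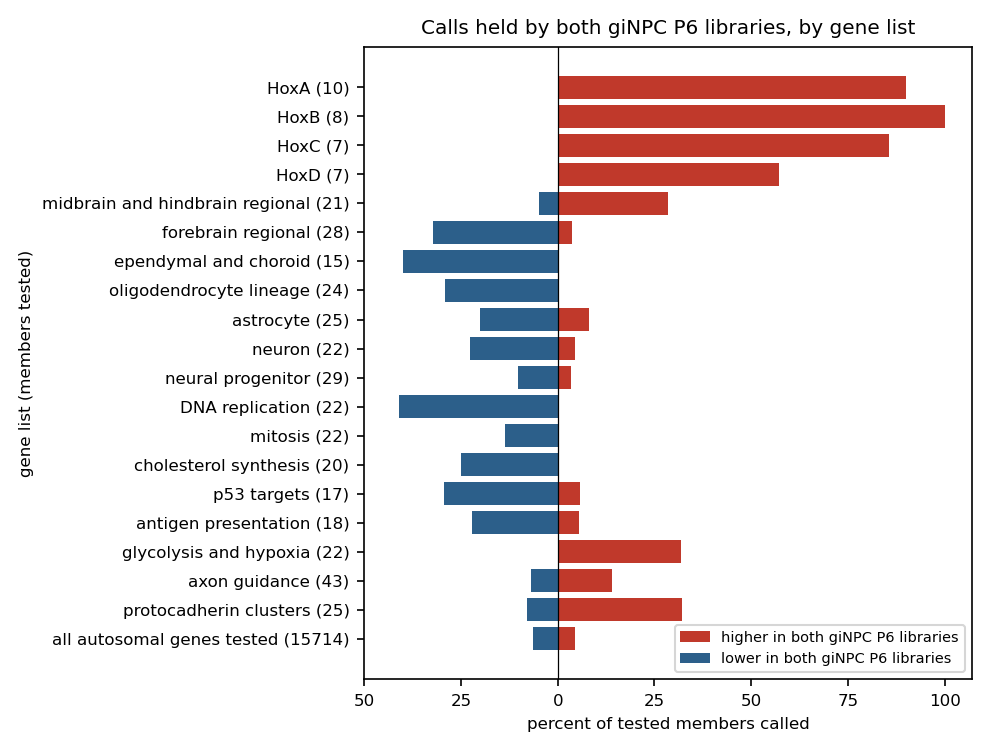
Percent of tested members of each gene list that were called and held in both giNPC P6 libraries, higher to the right and lower to the left, with the number tested in parentheses and all 15714 autosomal genes in the last row. The Hox clusters extend to the right, forebrain, choroid, oligodendrocyte and DNA replication genes to the left, and the background is 4.47% higher and 6.31% lower.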

How the data were processed

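RNA was extracted with Trizol, enriched with oligo(dT) beads and sequenced in paired ends on an Illumina HiSeq, per the labels' protocols. Per the submitters' processing notes, TopHat2 2.0.12, HTSeq 0.6.0, Cufflinks 2.2.1, edgeR and the mm9 build were used; no label states the strand setting or what edgeR was used for. The authors deposited read counts per transcript and, per the file headers, Cufflinks FPKM per transcript. Between 23.58% and 26.42% of reads in the 4 libraries fell in transcripts and 48.68% to 49.01% had no feature.

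Both tables were summed by gene symbol to 22518 genes, 3625 with several transcripts; of 1719 such genes with at least 1000 counts expected from FPKM and length, 1623 fell short of 0.5 of that expectation, as did 142 of 5547 single-transcript genes. Counts (14292 genes after filterByExpr, TMM) were tested with edgeR 4.0.16 by the quasi-likelihood test, and FPKM (15659 genes with at least 1 FPKM in at least 2 libraries) with limma 3.58.1 on log2(FPKM + 1), which understates changes of low genes. Each two-sided test took all 22 libraries in 1 model of 11 group means (11 residual degrees of freedom, common biological coefficient of variation 0.161), in R 4.3.3. The giNPC P6 libraries had among the widest spread of any group (library weights 0.33 against 3.11 for Brain-NPC), and the shared estimate does not carry this, which can make p-values too small. CPM are TMM-scaled. For counts, SE was obtained from the estimate and its F statistic, as their ratio after taking the root of F. Bounds against a group with no counts use 3 counts over both libraries and cover counting error only. Tests were tried on simulated data before use. The simulation gave all groups the same spread for a gene, so it does not cover the wider spread of giNPC P6.

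Members, lists and rules were chosen with earlier results of these data known. Genes were named by rule: the largest changes held in both libraries (12 each way from counts of at least 10 CPM, 8 from FPKM of at least 5), set anchors of 46 lists with up to 4 further called members each, the 10 called genes whose giNPC P6 libraries differ most, and genes with no count in 1 group. Chromosome medians, CG counts, the gamma protocadherin count and the placing against earlier stages were added after the data were seen. Alternatives were other scaling, filters, DESeq2 1.42.0, voom with library weights (added after the data were seen), the 4 libraries alone, the replicate number as a block, and each library left out. Results of some genes are not reported here.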

Additional observations from a re-analysis of the deposited data

Results flagged for a closer look

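Genes of the Y chromosome, which no comparison used, had counts in giNPC P6 above those of Brain-NPC. Eif2s3y had 669 counts in giNPC P6 replicate 2 and 0 in replicate 1, against 0 and 3 in Brain-NPC. Ddx3y had 149 and 601 counts, against 0 and 1. Kdm5d had 118 and 598, against 0 and 0, and Uty had 52 and 281, against 0 and 1. At day 1 these 4 genes had between 406 and 1365 counts. Xist had 4017 and 161 counts in giNPC P6, 2237 and 2409 in Brain-NPC and 0 and 2 at day 1. What these differences derive from was not tested.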

How the results depend on the processing

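From counts, the 946 higher and 1150 lower genes, and the 615 and 886 held in both libraries, stayed within 1.5 times under RLE scaling, no filter, DESeq2, the 4 libraries alone, voom with library weights and the nearer Brain-NPC library. Tested from FPKM instead, the same genes gave 532, 675, 326 and 493. For genes with several transcripts, adding 0.1 in place of 1 gave 275 higher and 259 lower, and 188 and 189 in both; no filter, the 4 libraries alone, library weights and the nearer Brain-NPC library stayed within 1.5 times of 155, 149, 88 and 105. The cause was not tested.

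With 1 library left out, the counts ranged from 711 to 981 higher and 946 to 1195 lower, and from 523 to 969 and 772 to 1177 in both. From FPKM they ranged from 146 to 198 and 146 to 182, and from 86 to 197 and 102 to 182 in both. Without a giNPC P6 library, the check in both reads 1 library only, which by construction raises its counts.

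Replicate numbers did not pair the samples (correlation of deviations 0.006); with the replicate block 915 genes were higher and 1133 lower from counts, 155 and 149 from FPKM, and no named gene changed its call.

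Of 118 called genes named, 96 kept their direction and call under every setting in which they were tested. With the 4 libraries alone 104 kept and 9 lost their call, and the remaining genes were not tested there. From the FPKM table calls were lost for 10. Leaving out 1 library gave log2 fold changes from -2.48 to 4.52 for Twist1, -5.41 to 5.09 for Unc5d, -5.32 to 3.25 for Zfhx4 and -2.72 to 2.11 for Lyz2, the low end without giNPC P6 replicate 1. Zfhx4 stood at -1.25 with voom weights. For genes called under neither setting, directions were not compared. Group sizes of 2, and low counts near 3, limit what these libraries can resolve.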
